A study of Mus musculus with 4 samples.

Results

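The genes described here are 7 enzymes of cholesterol synthesis, Hmgcs1, Idi1, Fdft1, Sqle, Lss, Cyp51 and Msmo1. They were picked by name, by matching the Ensembl identifier of each row to these mouse symbols, and all 7 were found among the 55401 genes of the count files. None of the 7 is a lipoprotein receptor. RNA was sequenced from kidney and heart of C57BL/6 mice that had all undergone cecal ligation puncture (CLP), a surgical model of sepsis in which gut bacteria leak into the abdomen. There were 4 groups with 1 library each: CLP kidney, CLP + MLT kidney, CLP heart and CLP + MLT heart, where MLT is melatonin. For the kidneys, the methods describe male mice aged 8 weeks that drank melatonin at 25 μg/ml, dissolved with a little ethanol, for 14 days before the surgery, and kidneys were taken 24 h after it. For the hearts no age, dose or time is stated, and for the CLP mice no vehicle. The number of mice behind each library is also not stated. With 1 library per group the spread between mice is unknown, and no p-value is given. A bulk library also cannot tell fewer cells of a type from less RNA per cell.

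Cells make cholesterol from acetyl-CoA through mevalonate, isoprenoids, squalene and lanosterol. The enzymes are under joint control of the transcription factor SREBP2, encoded by Srebf2, which is carried by Scap and held in the endoplasmic reticulum by the Insig proteins while sterols are plentiful. When membrane sterols fall, SREBP2 is released and raises transcription of the synthesis enzymes. Of the 7, Hmgcs1 acts before mevalonate, Idi1 makes the allylic isoprenoid unit, Fdft1 joins isoprenoids to squalene, Sqle and Lss turn squalene into lanosterol, and Cyp51 and Msmo1 remove methyl groups from the sterol ring.

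Between 15883057 and 22927905 reads were counted on genes in each library. Cardiomyocyte markers summed to 518100 and 322480 counts in the CLP and CLP + MLT heart libraries and to 259 and 244 in the kidney libraries. Proximal tubule markers summed to 87803 and 67796 counts in kidney and, against the tissue label, to 1555 and 3077 in heart. All 9 of these tubule markers had counts in both heart libraries, the lowest being 5. Mitochondrially encoded genes made up 14.8% of counts in CLP kidney and 24.2% in CLP + MLT kidney, and 31.6% and 36.0% in heart.

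The stretches of genome upstream of Hmgcs1 and Cyp51 are shown because these were the members that stood highest in the CLP + MLT kidney library relative to CLP, and that of Idi1 because it stood lowest. RefSeq promoter windows of 300 bases (GRCm38.p6) were matched for 5 of the 7 genes, all except Fdft1 and Sqle. Each sequence is printed 5′ to 3′ on the gene's strand and ends before the first annotated start of the gene. Capitals mark a sterol regulatory element (TCACNCCAC), a CCAAT box (CCAAT) or a GC box (GGGCGG), read on either strand.
Hmgcs1, chr13:119690101-119690350, plus strand: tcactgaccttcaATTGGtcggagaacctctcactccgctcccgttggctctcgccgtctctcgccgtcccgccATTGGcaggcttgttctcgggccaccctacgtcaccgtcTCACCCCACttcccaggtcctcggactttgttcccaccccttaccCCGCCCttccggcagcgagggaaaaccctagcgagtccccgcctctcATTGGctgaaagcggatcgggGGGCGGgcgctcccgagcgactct
Cyp51, chr5:4104747-4104947, minus strand: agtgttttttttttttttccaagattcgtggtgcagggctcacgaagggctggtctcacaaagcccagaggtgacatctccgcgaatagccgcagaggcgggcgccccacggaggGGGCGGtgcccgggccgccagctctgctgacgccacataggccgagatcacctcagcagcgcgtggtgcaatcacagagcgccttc
Idi1, chr13:8885356-8885500, plus strand: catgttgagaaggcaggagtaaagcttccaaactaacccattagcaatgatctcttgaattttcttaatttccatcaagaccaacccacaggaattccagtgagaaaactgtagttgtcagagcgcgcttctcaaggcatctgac

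In the full windows, which reach 50 bases past the RefSeq start, Hmgcs1 held 1 match to the sterol regulatory element and the other 4 matched genes held 0. Of all 32851 windows, 1.24% held this motif. Only this pattern was searched, so 0 matches do not show that a gene lacks a sterol regulatory element. Each of the 5 genes held at least 1 CCAAT box, with 4 in Hmgcs1, 3 in Msmo1, 2 in Idi1 and 1 each in Lss and Cyp51, against 37.4% of all windows with any. Each also held at least 1 GC box, against 35.7% of all windows. None held the E-box CACGTG, which was present in 7.15% of windows. Matches past the first annotated start are counted here but lie outside the printed stretches, so no capitals appear for Idi1.

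Whether the synthesis enzymes moved as a group between CLP and CLP + MLT was asked first in kidney. They did not move one way. Taking a 1.5-fold difference after TMM scaling as the limit, Cyp51 and Hmgcs1 were higher in the CLP + MLT kidney library, Idi1 and Msmo1 were lower, and Fdft1, Sqle and Lss lay within the limit. So 4 of the 7 were past 1.5-fold, 2 in each direction, against 22.6% of the 16932 genes that averaged 10 or more counts (11.0% higher and 11.6% lower). The median log2 ratio of the 7 was 0.12, against 0.0029 over all genes tested. Scaled by library size only, the median of the 7 was −0.07 and that of all genes −0.19, while the same 4 genes passed in the same directions. That scaling left 26.6% of all calls higher, against 48.6% with TMM. With a limit of 2-fold, Cyp51 and Idi1 were past it in kidney, against 9.03% of all genes, and Cyp51 and Sqle in heart, against 9.82%. With an exact binomial p on the reads of at most 0.01 added to the 1.5-fold limit, a comparison of reads that covers no spread between mice, all 4 were counted in kidney (15.4% of all genes), and Cyp51 and Sqle in heart (15.9%). Since variation between mice is unknown, edgeR's exact test was also run at assumed coefficients of variation, counting genes past 1.5-fold with an unadjusted p of at most 0.01. At an assumed 0.1, 3 members were counted in kidney (12.1% of all genes) and 2 in heart (12.1%). At 0.2 they were 2 (3.66%) and 1 (4.17%), and at 0.4 none was counted in either tissue (0.532% and 0.397%).

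**Figure D1:**
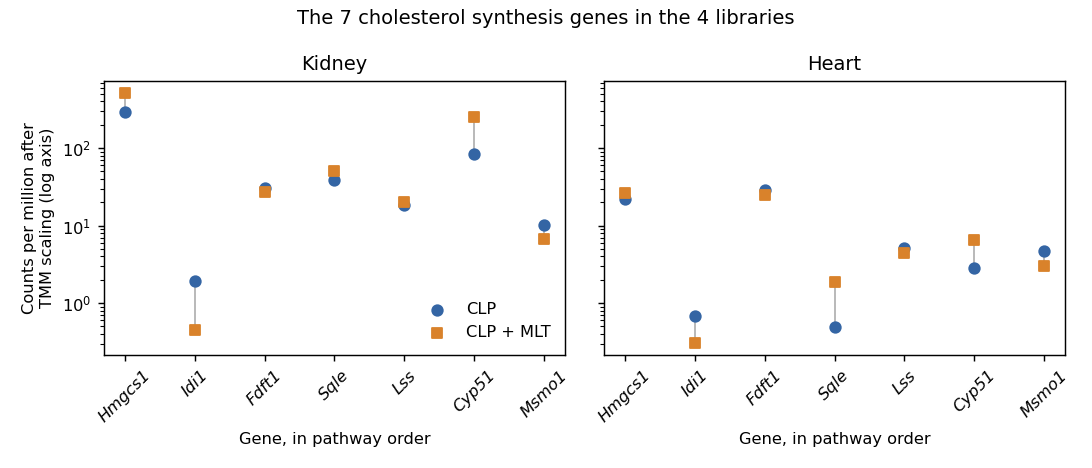
Counts scaled by library size and TMM within each tissue (CPM, log axis) for the 7 genes in pathway order, in kidney (left) and heart (right); each point is 1 library, blue circles for CLP and orange squares for CLP + MLT. Cyp51 and Hmgcs1 stand apart in kidney, with Cyp51 at 82.7 in CLP and 249 in CLP + MLT, and Idi1 is the lowest of the 7 in kidney.

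Cyp51 (ENSMUSG00000001467.5, chromosome 5 from 4081145 to 4104746 of GRCm38, minus strand) encodes lanosterol demethylase. It had 2030 counts in CLP kidney and 3834 in CLP + MLT kidney, which after scaling is 82.7 and 249 CPM. The CLP + MLT library was 3.01-fold higher, a log2 ratio of 1.59 with a 95% exact Clopper-Pearson interval of 1.51 to 1.67. The interval, here and below, covers counting error only. A larger ratio was found for 1.24% of the genes tested in kidney. Exons of Akap9 on the other strand overlap 166 bases of Cyp51, 3.76% of its exon length, and Akap9 itself had 1105 and 947 counts.

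Hmgcs1 (ENSMUSG00000093930.2, chromosome 13 from 119690379 to 119708260, plus strand) encodes the cytosolic HMG-CoA synthase that feeds the mevalonate pathway. Its counts in kidney were 7185 in CLP and 7803 in CLP + MLT, or 293 and 507 CPM after scaling. The second library was 1.73-fold higher, with a log2 ratio of 0.79 (0.74 to 0.84), and 6.64% of tested genes had a larger one. Hmgcs1 had the most counts of the 7 and held 61.5% of their summed counts in CLP kidney and 58.9% in CLP + MLT kidney. An antisense gene, Gm48342, covers 12.1% of its exons and had 242 and 77 counts.

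Sqle (ENSMUSG00000022351.14, chromosome 15 from 59315077 to 59331192), the squalene epoxidase, had 965 and 779 counts in kidney and a log2 ratio of 0.36 (0.23 to 0.50), above 0 but under 1.5-fold. Lss (ENSMUSG00000033105.12, chromosome 10 from 76531588 to 76557138), the lanosterol synthase, had 455 and 311 counts and a ratio of 0.12 (−0.09 to 0.33), an interval across 0 that leaves no detectable difference at this depth. Fdft1 (ENSMUSG00000021273.11, chromosome 14 from 63145150 to 63179578), the squalene synthase, had 758 and 415 counts and a ratio of −0.20 (−0.37 to −0.02). Fdft1 shares 774 exonic bases with Ctsb on the opposite strand, 18.3% of its exons, and Ctsb went from 18581 counts in CLP kidney to 6202 in CLP + MLT kidney. Whether counting used the strand is not known, and the part of this overlap in the Fdft1 value was not tested.

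Msmo1 (ENSMUSG00000031604.10, chromosome 8 from 64718139 to 64733792, minus strand) encodes the sterol methyl oxidase that acts after Cyp51. It had 249 counts in CLP kidney and 102 in CLP + MLT kidney, 10.2 and 6.62 CPM. It was 1.53-fold lower, a log2 ratio of −0.61 (−0.96 to −0.28), and 10.9% of tested genes had a smaller ratio. Idi1 (ENSMUSG00000058258.14, chromosome 13 from 8885501 to 8892451, plus strand), the isopentenyl diphosphate isomerase, had 47 and 7 counts and was 4.05-fold lower, a ratio of −2.02 (−3.47 to −0.92). These were the members with the fewest counts in kidney.

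The Idi1 count is uncertain. A stretch of 684 bases of its longest transcript is identical to the processed pseudogene Gm13502, and 681 bases match Gm35570 at 97.7%. Reads that align to more than 1 place were not counted, and these made up 23.6% of the CLP kidney file and 32.6% of the CLP + MLT kidney file. In Msmo1, 211 bases match transcripts of 69 other genes. For Fdft1, the pseudogene Gm6781 matched 1249 bases at 97.4%. Sqle had 0 matches of this kind to another gene's transcripts, counted from 75 bases at 95% identity.

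**Figure D2:**
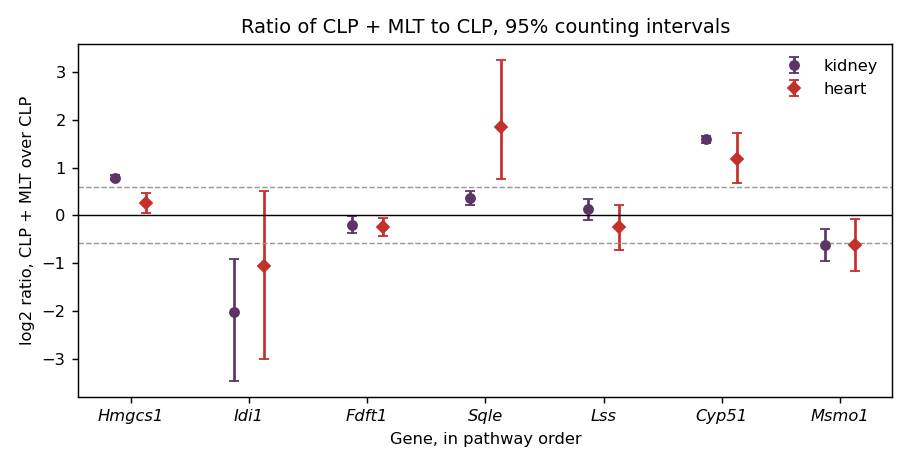
Log2 ratio of CLP + MLT over CLP for the 7 genes in pathway order, purple circles for kidney and red diamonds for heart; bars are 95% exact intervals of counting error and dashed lines mark 1.5-fold. Cyp51 lies above the upper line in both tissues (1.59 and 1.18) and Msmo1 at −0.61 and −0.62 sits close to the lower line in both.

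The same comparison in heart rested on far fewer reads, with 1057 counts over all 7 genes in CLP and 1079 in CLP + MLT, against 11689 and 13251 in kidney. In heart, 6 of the 7 averaged 10 or more counts, and Idi1 did not. Cyp51 and Sqle were higher in CLP + MLT, Msmo1 was lower, and Hmgcs1, Fdft1 and Lss lay within 1.5-fold. The 3 past the limit compare with 23.5% of the 15871 genes tested in heart (10.9% higher and 12.6% lower). Over these 6 the median log2 ratio was 0.0038, against 0.0023 over all genes tested. With Idi1, which was under the filter, the median of all 7 was −0.24.

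Cyp51 had 46 counts in CLP heart and 104 in CLP + MLT heart, a 2.26-fold higher value with a log2 ratio of 1.18 (0.67 to 1.72). Sqle had 8 and 30 counts, a ratio of 1.85 (0.76 to 3.25), the highest of the 7 in heart but from few reads. Hmgcs1 had 358 and 423 counts and a ratio of 0.25 (0.04 to 0.46). All 3 of these intervals lay above 0.

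Msmo1 had 76 and 49 counts in heart and was 1.54-fold lower, a log2 ratio of −0.62 (−1.17 to −0.09). This call was lost with scaling by library size only, upper quartile scaling or a prior count of 5. It was also lost with a limit of 2-fold, with the binomial p added and at every assumed variation. Fdft1 had 473 and 397 counts, with a ratio of −0.24 (−0.44 to −0.05), close to its value in kidney. Lss had 85 and 71 counts and a ratio of −0.25 (−0.73 to 0.22). Idi1, under the filter, had 11 and 5 counts. For Lss and Idi1 the depth did not allow a difference to be detected.

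Heart and kidney ratios were set side by side for each gene. The sign was shared by Hmgcs1, Sqle and Cyp51 on the higher side and by Fdft1 and Msmo1 on the lower side. Idi1 was also on the lower side in both. Its heart sign is not established, since it was under the filter with an interval of −3.00 to 0.51. Only Lss had opposite signs, with an interval across 0 in both tissues. The difference in log2 ratio, heart minus kidney, was 1.49 for Sqle (0.39 to 2.90) and −0.54 for Hmgcs1 (−0.75 to −0.33). For the other 5 genes the counting interval of this difference held 0, among them Cyp51 with −0.41 (−0.92 to 0.14) and Msmo1 with −0.0046 (−0.65 to 0.63). The heart and kidney libraries of a treatment may come from the same mice, which the labels do not say, so the tissues are not independent evidence of each other.

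Cyp51 and Msmo1 act close together in the pathway, yet moved apart in both tissues. The ratio of one gene's counts to another's in the same library does not depend on scaling, so it was taken for the 6 pairs of neighbours among the 7 in pathway order. There were 0.123 Msmo1 counts for each Cyp51 count in CLP kidney and 0.0266 in CLP + MLT kidney, a log2 change of −2.20 (−2.56 to −1.86). In heart the same quotient went from 1.65 to 0.471, a change of −1.80 (−2.57 to −1.06). The quotient of Cyp51 to Lss, the enzyme before it, went the other way, from 4.46 to 12.3 in kidney (1.47, 1.24 to 1.69) and from 0.541 to 1.46 in heart (1.43, 0.74 to 2.15). Both quotients hold Cyp51, so they are not separate observations. The interval left out 0 for 5 of the 6 pairs in kidney and for 4 of the 6 in heart. The share among pairs of other genes was not computed, so whether these counts are unusual is not known. Beyond counting error, the proportions of these pairs differed between the CLP and CLP + MLT libraries.

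The spread of the 7 ratios was wide. They ranged over 3.61 on the log2 scale in kidney, with an SD of 1.14 over the 7 genes, and over 2.91 in heart, with an SD of 1.03. Without Idi1, the heart ratios ranged over 2.47, with an SD of 0.96. In kidney the low end was also Idi1, from 47 and 7 counts, and the next lowest was Msmo1 at −0.61. The kidney SD without Idi1 was not computed. The SD over all genes tested was 0.65 in both tissues. In kidney, the summed counts of the 7 were higher in CLP + MLT, with a log2 ratio of 0.85 (0.82 to 0.89). Without Hmgcs1 and Cyp51 the sum of the other 5 had a ratio of 0.06 (−0.04 to 0.15), so the higher sum lay in these 2 genes. In heart, the sum of all 7 had a ratio of 0.04 (−0.08 to 0.16), and that of the other 5 was lower in CLP + MLT, with −0.23 (−0.40 to −0.07). That heart sum was mostly Fdft1, with 473 of 653 counts in CLP and 397 of 552 in CLP + MLT. It does not describe each of the 5, since Sqle among them was higher, with 8 and 30 counts.

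Levels of different genes were compared per length, as counts per kilobase of exons scaled to the same sum in every library. These levels carry no TMM scaling, so they are not directly comparable between CLP and CLP + MLT. In CLP kidney the order was Hmgcs1 at 140, Cyp51 at 41.2, Fdft1 at 16.1, Sqle at 15.6, Lss at 3.78, Msmo1 at 3.64 and Idi1 at 1.20. Fdft1 and Sqle did not differ beyond their counting intervals, and neither did Lss and Msmo1. In CLP + MLT kidney, Hmgcs1 (182) and Cyp51 (93.2) again came first, and no neighbours in the order overlapped.

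The heart had another order. Fdft1 was the highest in CLP heart at 12.0, followed by Hmgcs1 at 8.35, Msmo1 at 1.33, Cyp51 at 1.12, Lss at 0.844, Idi1 at 0.336 and Sqle at 0.155. The intervals of Msmo1, Cyp51 and Lss overlapped from neighbour to neighbour, as did those of Idi1 and Sqle. In CLP + MLT heart, Fdft1 (11.2) and Hmgcs1 (11.0) overlapped, and Cyp51 (2.80) stood above Msmo1 (0.949). Cyp51, which ranked next after Hmgcs1 in kidney, thus overlapped Msmo1 and Lss in CLP heart. In CLP + MLT heart it again came next after Hmgcs1, though well below it.

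The gap between tissues differed by gene. Per length, the heart level of Fdft1 was 74.5% of the kidney level in CLP and 106% in CLP + MLT. It was 36.5% and 53.2% for Msmo1, 22.3% and 25.3% for Lss, and 5.95% and 6.01% for Hmgcs1. For Cyp51 it was 2.71% and 3.01%, and for Sqle 0.99% and 4.27%. The 9 proximal tubule markers, which heart cells are not known for, stood in heart at 0.47% to 5.93% of their kidney level in CLP (median 1.88%) and at 1.23% to 31.8% in CLP + MLT (median 5.14%). Without TMM scaling, a shift of these percentages between treatments is not read as a change in the gap. With it, the heart log2 ratio minus that of kidney was −0.05 for Fdft1 (−0.31 to 0.22) and −0.0046 for Msmo1 (−0.65 to 0.63).

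Cyp51 and Sqle in both treatments, and Hmgcs1 and Lss in CLP + MLT, lay within the range of the tubule markers. For Lss (25.3%) this rests on 1 marker, Slc5a2 at 31.8%, and the next highest was Slc5a12 at 9.23%. In heart, 6 of the 9 tubule markers were higher in CLP + MLT past 1.5-fold and 1 was lower, with a median log2 ratio of 1.32. Their summed per-length level was 37.4 in CLP heart and 75.7 in CLP + MLT heart, and none was at 0. In kidney itself, 2 of the 9 were higher and 3 lower, with a median of 0.41. The part of these markers' cells in the heart and kidney values of Cyp51, Sqle and Hmgcs1 was not tested.

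**Figure D3:**
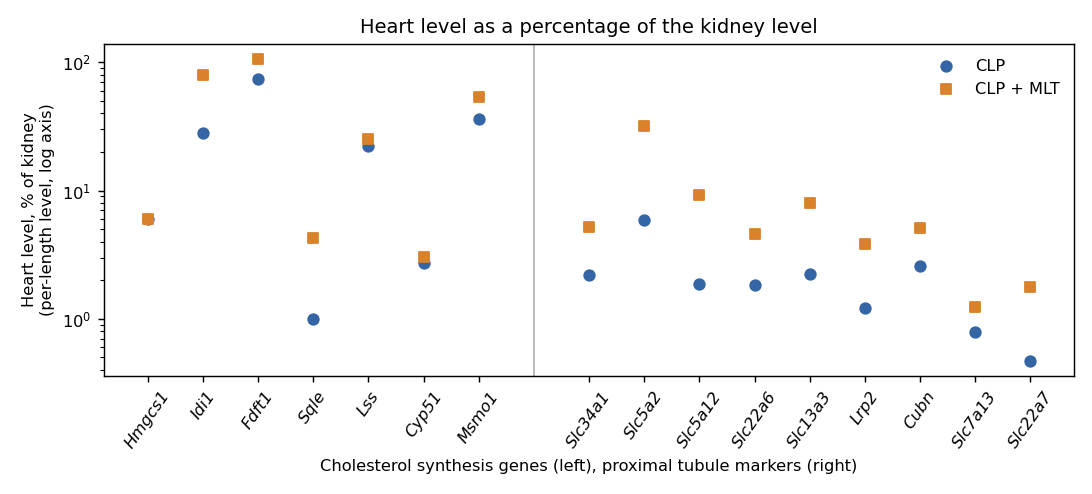
Per-length level in heart as a percentage of that in kidney (log axis) for the 7 genes (left) and the 9 proximal tubule markers (right), 1 point per treatment. Sqle, Cyp51 and Hmgcs1 lie at the heights of the tubule markers, while Fdft1 is near the kidney level (74.5% and 106%).

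Markers of neighbouring tissues with a high use of cholesterol were read beside the kidney values. Of the 9 adrenal cortex markers, Cyp11b1, Cyp11b2, Cyp21a1 and Mc2r were at 0 counts in both kidney libraries, and Cyp11a1 had 1 and 3. Hsd3b1 had 1 and 2, Nr5a1 had 0 and 1, and Star had 98 and 82. The 2 tested in kidney went apart, Star with a log2 ratio of 0.41 (−0.03 to 0.85) and Akr1b7 with −1.57 (−1.92 to −1.24). The summed per-length level of the list was 32.0 in CLP kidney and 9.89 in CLP + MLT kidney, most of it from Akr1b7 with 426 and 90 counts. In heart the list summed to 2.46 and 3.05, most of it from Star with 73 and 90 counts, and 5 of 9 were at 0 in both libraries.

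The 9 liver markers summed to 1362 and 714 in kidney and to 43.5 and 45.4 in heart. Most of the kidney sum was Cyp2e1, at 1061 in CLP and 425 in CLP + MLT. Albumin had 114 and 71 counts in kidney, 1 of the 9 was at 0 in both kidney libraries, and of 7 tested 1 was higher and 2 were lower. In heart, 2 of the 8 tested were higher and 4 lower. The 8 fat markers summed to 48.8 and 31.4 in kidney, nearly all from Fabp4 at 45.7 and 30.8. Adipoq was at 0 there, and 2 of 3 tested were lower, Plin1 with 33 and 1 counts and Cidec with 32 and 8. In heart they summed to 628 and 763, nearly all from Fabp4, with 0 of 1 tested past 1.5-fold. The 7 macrophage markers summed to 147 and 205 in kidney, with 3 higher and 0 lower, and to 271 and 346 in heart, with 2 higher and 2 lower. The 8 cardiomyocyte markers summed to 15212 and 8859 in heart, with 4 lower and a median of −0.84. No macrophage or cardiomyocyte marker was at 0 in any library. The part of these markers' cells and of the mitochondrial share in the kidney and heart values of the 7 genes was not tested.

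The remaining enzymes of the pathway were 14 genes listed from general knowledge. In kidney 13 passed the filter, with a median log2 ratio of 0.10, and 1 was higher and 1 lower past 1.5-fold, beside 22.6% of all genes. In heart 13 passed, with a median of 0.09, and 2 were higher and 0 lower, beside 23.5% of all genes. Mvd, which makes isopentenyl diphosphate, had 111 and 204 counts there (0.88, 0.55 to 1.23), and 998 and 716 in kidney (0.19, 0.05 to 0.33). Fdps, the farnesyl diphosphate synthase, did not pass the filter in either tissue, with 2 to 11 counts per library. Like Idi1, it has near-identical copies, 6 other genes matching 16.7% of its longest transcript.

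Among Srebf1, Srebf2, Scap, Insig1 and Insig2, Insig1 was lower past 1.5-fold in CLP + MLT kidney, and none was past it in heart. Srebf2 had 1201 and 666 counts in kidney, a log2 ratio of −0.18 (−0.32 to −0.04), and 273 and 318 in heart, a ratio of 0.23 (−0.01 to 0.47). Srebf1, which encodes the related factor that favours fatty acid synthesis, had ratios of 0.14 (−0.06 to 0.34) in kidney and −0.42 (−0.59 to −0.26) in heart. Scap had −0.15 in kidney and −0.18 in heart. Insig1, itself raised by SREBP2 in many cells, had 437 and 162 counts in kidney and was 1.69-fold lower, a ratio of −0.76 (−1.03 to −0.50). In heart its ratio was −0.30 (−0.65 to 0.05). Insig2 had −0.53 (−0.74 to −0.31) in kidney and 0.08 (−0.22 to 0.38) in heart.

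Of the 17 genes of this control list, all tested in both tissues, 0 were higher and 1 was lower in kidney (22.6% of all genes), with a median of −0.18. In heart 1 was higher and 1 lower (23.5% of all genes), with a median of −0.11. Nr1h3, the sterol sensor LXR alpha, was the lower one, with 845 and 529 counts (−0.67, −0.83 to −0.51).

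Cholesterol uptake and trafficking genes, 14 in the list, included 13 tested in each tissue. In kidney 1 was lower, Lipa, the lysosomal lipase that frees cholesterol from lipoproteins, with 1478 and 542 counts (−0.77, −0.92 to −0.63). In heart 3 were higher and 0 lower, beside 23.5% of all genes past the limit (10.9% higher and 12.6% lower). Among these 3 were Stard4, a sterol carrier, with 119 and 210 counts (0.83, 0.50 to 1.17), and Lrp2, with 117 and 329 counts (1.50, 1.19 to 1.82). Lrp2 encodes the endocytic receptor megalin and is also one of the tubule markers. The remaining one was Npc1l1 with 12 and 42 counts, named after its values were seen. The 1 of 13 in kidney stands beside 22.6% of all genes past the limit there. Median ratios of the list were −0.05 in kidney and 0.01 in heart.

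The fatty acid synthesis genes that answer to SREBP factors numbered 17, with 16 tested in each tissue. In kidney 1 was higher, Elovl6, a fatty acid elongase, with 220 and 212 counts (0.62, 0.34 to 0.90), and 1 was lower, Thrsp, with 101 and 39 counts, named after its values were seen. In heart 0 were past 1.5-fold and the median was −0.26. In the isoprenoid branch, 11 of 12 genes were tested, 0 of them past the limit in kidney. In heart 1 was lower, Fntb, a farnesyltransferase subunit, with 142 and 70 counts (−1.01, −1.44 to −0.59). These counts stand beside 22.6% of all genes past the limit in kidney and 23.5% in heart. None of these lists had a median past 1.5-fold in either tissue.

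**Figure D4:**
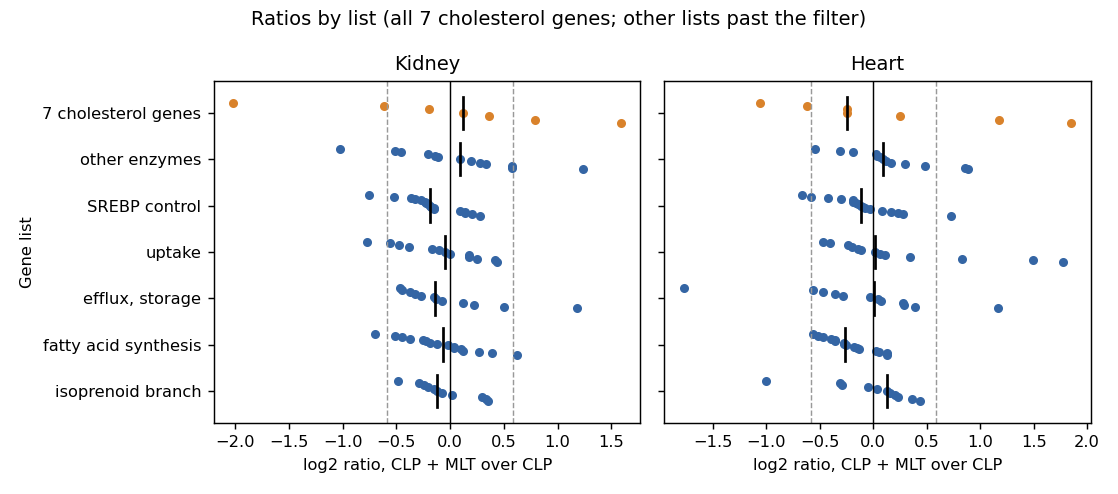
Log2 ratios of CLP + MLT over CLP by gene list in kidney (left) and heart (right); each point is 1 gene, the black bar is the list's median and dashed lines mark 1.5-fold. All 7 cholesterol genes are drawn in orange, and their points reach from −2.02 to 1.59 in kidney, farther apart than those of any other list there. The low end is Idi1, from 47 and 7 counts. Without Idi1 they reach from −0.61 to 1.59, beside −1.02 to 1.23 for the other enzymes.

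The genes most like the 7 in pattern were sought over the 4 libraries, by the Euclidean distance to the medians of the 7 in the kidney log2 ratio, the heart log2 ratio and the log2 difference in CPM between kidney and heart. Among 9385 genes averaging 100 or more counts in each tissue, the nearest were Gng5 (distance 0.049), Itm2b (0.075), Oplah (0.099), Hdgf (0.10) and Acox3 (0.11). Since the 7 ratios lie far apart, these genes resemble the medians rather than any one member. None belongs to a list used here.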

How the data were processed

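Total RNA was selected with poly-T beads, made into libraries and sequenced. The authors trimmed reads with trim-galore and aligned them to mm10 with HISAT2 2.1.0, and the submitters' processing notes name HTSeq. The deposited values are raw counts of reads per gene. Not given in the sources used here are the annotation, the strand setting and the HTSeq version. The 5 closing lines of each file name no gene, hold 65.5% to 72.8% of its total and were left out. Positions and names came from GENCODE M21 (GRCm38), which matched 55141 of 55401 identifiers.

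Counts were scaled within each tissue by TMM in edgeR 4.0.16 (R 4.3.3), with factors of 1.07 and 0.935 in kidney and 0.981 and 1.02 in heart for CLP and CLP + MLT. Log2 ratios used a prior count of 0.5. The study used edgeR with a p-value, but 1 library per group gives no dispersion, so only its fold of 1.5 was applied, to genes averaging 10 or more counts. Alternatives included DESeq2 1.42.0 size factors and edgeR's exact test at assumed variation. Intervals for differences of log2 ratios combined those of the 2 ratios. Similar transcripts were found with BLAST 2.17.0. Values were computed in Python 3.11.15 with scipy 1.17.1. The procedure was tested on simulated counts. The members and lists were chosen with earlier results of these data known. Named were the 7 genes, 5 SREBP genes, list genes past 1.5-fold with a mean of at least 100 counts (up to 6 a list), the 5 most alike genes and markers of adrenal cortex, liver, fat, proximal tubule and cardiomyocytes. Some genes under this rule are not reported here.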

Additional observations from a re-analysis of the deposited data

Results flagged for a closer look

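Opposite directions between the tissues were looked for among the 7 genes and the other listed genes, taking those whose counting intervals lay on opposite sides of 0. Of the 95 genes of the lists, 9 met this, 1 of them past 1.5-fold in both tissues, and none of the 7 did. The share of all genes that met this was not computed, so whether these counts are unusual is not known. Among the genes named here it was Nr1h3, with a log2 ratio of 0.28 in kidney and −0.67 in heart, a difference, heart minus kidney, of −0.94 (−1.15 to −0.74). Each group has 1 library, so this difference was not tested against the spread between mice. No group had enough libraries to look for an outlying sample.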

How the results depend on the processing

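Direction and size held for most values. Of 121 recalculated log2 ratios of single members, 117 stayed within the counting interval of the value reported, 0 of the called ones changed sign, and 4 moved, all in kidney with scaling by library size only (Hmgcs1 0.60, Fdft1 −0.39, Sqle 0.17 and Cyp51 1.39). Over the scalings, filters, prior count and length and GC trends tried, the median of the 7 ran from −0.07 (library size only) to 0.24 (genes averaging 50 or more, which leaves out Idi1) in kidney. In heart it ran from −0.25 to −0.19 with Idi1 kept. Over the 6 members past the filter, chosen after seeing the data, it was 0.0038 and ran from 0.0010 to 0.060 over the scalings, prior count and trends, and over the 5 averaging 50 or more it was −0.24. The number of members past the limit in kidney, 4, was 2 with a fold of at least 2 or an assumed coefficient of variation of 0.2, and 0 with 0.4. In heart, 3 became 1 with 0.2, where Sqle stayed and the call of Cyp51 was lost, and 0 with 0.4. The filter of an average of 50 or more left Sqle out in heart. The call of Msmo1 in kidney was lost at an assumed variation of 0.1 and that of Hmgcs1 at 0.2.

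Over all genes, 3834 were past the limit in kidney and 3723 in heart. These counts were 10700 and 10463 without a filter, 2015 and 1878 for genes averaging 50 or more, 1529 and 1559 with a fold of at least 2, and 2048 and 1920, 619 and 662, and 90 and 63 with assumed variations of 0.1, 0.2 and 0.4. With the longest transcript in place of the exon union as length, 13 of 28 levels moved beyond counting error, and Msmo1 (6.43) passed Lss (4.99) in CLP kidney. No replicate could be left out, since each group has 1 library. No paired analysis was possible because each group has 1 library and the groups compared share no number: both melatonin titles carry a 4 of unstated meaning, and the CLP titles carry none. Depth limits the heart values of Idi1, Sqle, Lss, Cyp51 and Msmo1, each with under 110 counts per library.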

Other observations

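Genes of cholesterol removal and storage, 14 in the list and 12 tested in each tissue, are given here as values, named after they were seen. Of all genes tested, 22.6% in kidney and 23.5% in heart were past 1.5-fold. In kidney 1 was higher past 1.5-fold, Cyp46a1, which hydroxylates cholesterol and is best known from neurons, with 82 counts in CLP and 117 in CLP + MLT (log2 ratio 1.18, 0.77 to 1.61). In heart, Cyp7b1, an oxysterol hydroxylase, was higher with 28 and 63 counts (1.17, 0.52 to 1.88) and had 4775 and 4236 in kidney. Soat2, which esterifies cholesterol, was lower in heart with 70 and 20 counts (−1.77, −2.59 to −1.06).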
